A study of Homo sapiens with 12 samples.

Results

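The genes described here lie on the long arm of chromosome 3 around PIK3CA, between 168 and 184 megabases in GRCh38, the build the submitters' processing notes name. They were chosen by position alone: a row of the deposited table was taken when its first chromosome entry was 3 and its whole span fell inside that window. The rule found 150 members among 38516 genes, of which 1913 others lie on chromosome 3, and 3 further genes of the window were left out and are not analysed here. The window of 16 megabases covers much of band 3q26 and runs into the next band toward the telomere. It is often gained in squamous carcinomas, but DNA copy number was not measured in this study, so the word amplicon names the region and not a state of these cells.

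RNA was sequenced from 2 human cell lines established from esophageal squamous cell carcinoma (ESCC), KYSE150 and KYSE510, both grown in RPMI medium with fetal bovine serum. Each line gave 3 control libraries and 3 libraries with silencing of HCP5, a gene for a long non-coding RNA, which makes 12 libraries in 4 groups. The labels do not describe the silencing reagent or what the control cells carried, and each line is a single line, so a difference between lines is a difference between these cultures. Nothing in the labels says that the 3 libraries of a group came from separate cultures, so p-values measure the spread between libraries, which may be technical.

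Libraries held 20035025 to 28202422 reads assigned to genes, and in KYSE150 every silenced library (26281327 to 28202422) was deeper than every control (20035025 to 22700935). HCP5 itself stood at 0.770 ± 0.022 RPKM (reads per exon length and library size; SD, n = 3) in KYSE150 controls and 0.437 ± 0.133 in silenced libraries. In KYSE510 it stood at 1.39 ± 0.47 and 0.801 ± 0.257. The groups did not overlap in KYSE150 and did in KYSE510, and the change missed the threshold in both lines (limma, Benjamini-Hochberg adjusted p = 0.267 and 0.646). HCP5 was lower in 6 of 6 same-numbered pairs. Averaged over both lines its difference was -0.49 (limma adjusted p = 0.185). A limma fit that blocked on replicate number, a pairing inferred from these data, lowered that p to 0.0295. All 8 squamous markers were detected, although PKP1 was at 0.075 RPKM in KYSE510 controls. Of 9 markers of fibroblasts, immune and endothelial cells, 6 missed the filter on low values. CD68 was at 37.5 and 40.0 RPKM in the control lines, and COL1A1 and CDH5 reached 0.628 and 1.55 RPKM in KYSE510 controls.

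PIK3CA encodes the alpha catalytic subunit of the class I phosphoinositide 3-kinases, lipid kinases at the plasma membrane that receptor tyrosine kinases and G protein-coupled receptors switch on and that signal to AKT and mTOR. Its neighbours include the atypical protein kinase C gene PRKCI, the exchange factor gene ECT2, the transcription regulators MECOM, SKIL and TBL1XR1, the chromatin gene ACTL6A and the mitochondrial fusion gene MFN1. When a chromosome segment is gained, all its genes are present in extra copies, but each still has its own promoter, and genes differ in how far their RNA follows the copy number.

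By GENCODE release 29, the 150 members comprise 53 protein-coding genes, 36 processed pseudogenes, 21 antisense genes, 20 long intergenic non-coding RNAs and 20 genes of other types. In this count 95 members were matched by name and 55 by identical position. Tests were run on genes that reached 0.5 RPKM in 3 or more libraries, on the scale log2(RPKM + 0.5), which understates the change of low genes. This filter kept 61 members, among them 39 of the 53 protein-coding genes, 6 of the 36 processed pseudogenes, 11 of the 21 antisense genes and 1 of the 20 intergenic RNAs. The 89 members that were not tested had a mean of at most 0.336 RPKM and fewer than 50 reads in every library, and 8 of them had no read in any library. Of the 61, 44 passed the filter in both lines, 11 through KYSE510 alone and 6 through KYSE150 alone. The last 17 could pass only where they were higher, so counts over the tested members are descriptions.

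Promoter sequences were taken from RefSeq (GRCh38.p14), which gave 250 bases before and 50 after the RefSeq start of 57 members. That start need not be the start in the deposited table. Some bases printed as before the start therefore lie inside the gene spans given further below. Promoters dense in the dinucleotide CG are typical of broadly used genes. How broadly the members are used was not measured, and the counts below carry no test. The 35 protein-coding members that were tested and had an entry held a median of 24 CG dinucleotides in 300 bases, and 31 of them (88.6%) held at least 10. Of the 14 coding members that were too low to test, the 13 with an entry held a median of 5, and 5 of them (38.5%) held at least 10. Over all 35116 promoters of the table the median was 14, and 56.4% held at least 10. The 250 bases before the start are printed for 3 members that were nearly silent in KYSE150 and read in every KYSE510 library, because they show how unlike such promoters can be. CG dinucleotides are in capitals.
GNB4: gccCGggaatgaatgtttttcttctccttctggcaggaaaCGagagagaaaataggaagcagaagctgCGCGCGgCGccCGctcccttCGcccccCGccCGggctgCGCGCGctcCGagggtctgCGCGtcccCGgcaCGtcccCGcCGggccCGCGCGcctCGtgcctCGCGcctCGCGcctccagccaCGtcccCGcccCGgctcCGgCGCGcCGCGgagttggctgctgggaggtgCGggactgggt
TNIK: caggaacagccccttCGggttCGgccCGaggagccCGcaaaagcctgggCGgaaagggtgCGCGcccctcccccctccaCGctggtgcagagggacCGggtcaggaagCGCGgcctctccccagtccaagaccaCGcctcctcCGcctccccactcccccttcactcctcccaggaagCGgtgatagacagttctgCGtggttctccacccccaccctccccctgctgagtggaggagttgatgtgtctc
TNFSF10: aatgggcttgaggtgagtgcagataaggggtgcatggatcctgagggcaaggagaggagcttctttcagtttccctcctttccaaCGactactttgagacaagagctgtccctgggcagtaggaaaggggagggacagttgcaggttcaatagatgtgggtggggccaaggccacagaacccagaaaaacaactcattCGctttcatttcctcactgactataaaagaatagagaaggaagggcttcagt
The GNB4 sequence is chr3:179451471-179451720 on the minus strand and holds 37 CG dinucleotides. That of TNIK is chr3:171460409-171460658, minus strand, with 15, and that of TNFSF10 is chr3:172523431-172523680, minus strand, with 2. LAMP3, which had the same direction, has no entry in the table.

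Another motif, the CCAAT box, was searched as CCAAT or its reverse complement ATTGG in the same 300 bases. It was found in 11 of the 15 coding members that were lower in KYSE510 (73.3%), in 1 of the 7 that were higher (14.3%), in 5 of the 13 that did not pass the threshold (38.5%) and in 34.6% of all promoters. These shares come from few genes and carry no test, and a match to 5 letters is not a known binding site. TATAAA or TTTATA was found in 4 of the 35 tested coding members (11.4%) and in 11.5% of all promoters, and the TNFSF10 sequence above holds a match. The 250 bases before the start are printed for PIK3CA and for 2 of the members furthest below KYSE150 in KYSE510, with the match in capitals. They were picked because they hold a match. RPL22L1, the member furthest below, and MECOM hold none.
PIK3CA: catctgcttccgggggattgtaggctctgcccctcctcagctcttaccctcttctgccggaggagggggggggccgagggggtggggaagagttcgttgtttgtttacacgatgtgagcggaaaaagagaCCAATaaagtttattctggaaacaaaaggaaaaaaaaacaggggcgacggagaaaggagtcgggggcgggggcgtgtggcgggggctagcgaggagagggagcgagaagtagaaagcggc
MFN1: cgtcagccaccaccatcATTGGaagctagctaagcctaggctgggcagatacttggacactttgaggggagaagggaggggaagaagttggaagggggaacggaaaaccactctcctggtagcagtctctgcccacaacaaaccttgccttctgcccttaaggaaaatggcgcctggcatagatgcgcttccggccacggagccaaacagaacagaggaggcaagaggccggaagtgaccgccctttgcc
TTC14: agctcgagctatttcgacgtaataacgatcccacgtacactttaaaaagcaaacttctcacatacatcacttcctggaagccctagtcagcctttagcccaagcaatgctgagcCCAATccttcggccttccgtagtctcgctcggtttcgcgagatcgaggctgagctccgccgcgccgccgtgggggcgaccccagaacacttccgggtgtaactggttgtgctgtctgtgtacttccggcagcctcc
The PIK3CA sequence is chr3:179148107-179148356, that of MFN1 chr3:179347459-179347708 and that of TTC14 chr3:180601913-180602162, all on the plus strand, and each holds 1 match. The MFN1 match is on the opposite strand. By the spans of the deposited table, nearly all of the printed PIK3CA sequence, with its match, lies after the start of the gene.

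The first comparison set the 3 KYSE510 control libraries against the 3 KYSE150 control libraries, to see whether the members move together between lines. Calls fell in both directions, also among members that passed the filter in both lines. For some other members the filter fixed the direction, so the balance of the calls is a description. Of the 61 tested members, 17 were higher in KYSE510 (27.9%) and 17 lower (27.9%) by limma with an adjusted p under 0.05. Some called members share exon bases with another member called in the same direction, such as GNB4 and the antisense gene inside its exons. These counts may therefore hold the same reads more than once. Among all 17823 genes tested, 28.3% were higher and 33.7% lower, so the members' shares are near the background. The members' differences ran from -2.09 to 3.52 on the log2 scale with a median of -0.03, beside -0.07 over all genes tested. Of the 17 higher members, 10 had passed the filter through KYSE510 alone, and of the 17 lower, 3 through KYSE150 alone. Of the 44 members that passed the filter in both lines, 7 were higher in KYSE510 and 14 lower. Among the 39 tested coding genes, 8 were higher in KYSE510, 15 lower and 16 did not pass. Of these 8, GNB4, TNIK, PLD1, GPR160 and TNFSF10 had passed the filter through KYSE510 alone. For the splits of the 44 members and of the 39 coding genes, no share over a like set of all genes is given. Both splits are descriptions only. The control libraries of the lines did not overlap for 36 of the 61 members (59.0%), beside 64% of all genes tested.

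**Figure D1:**
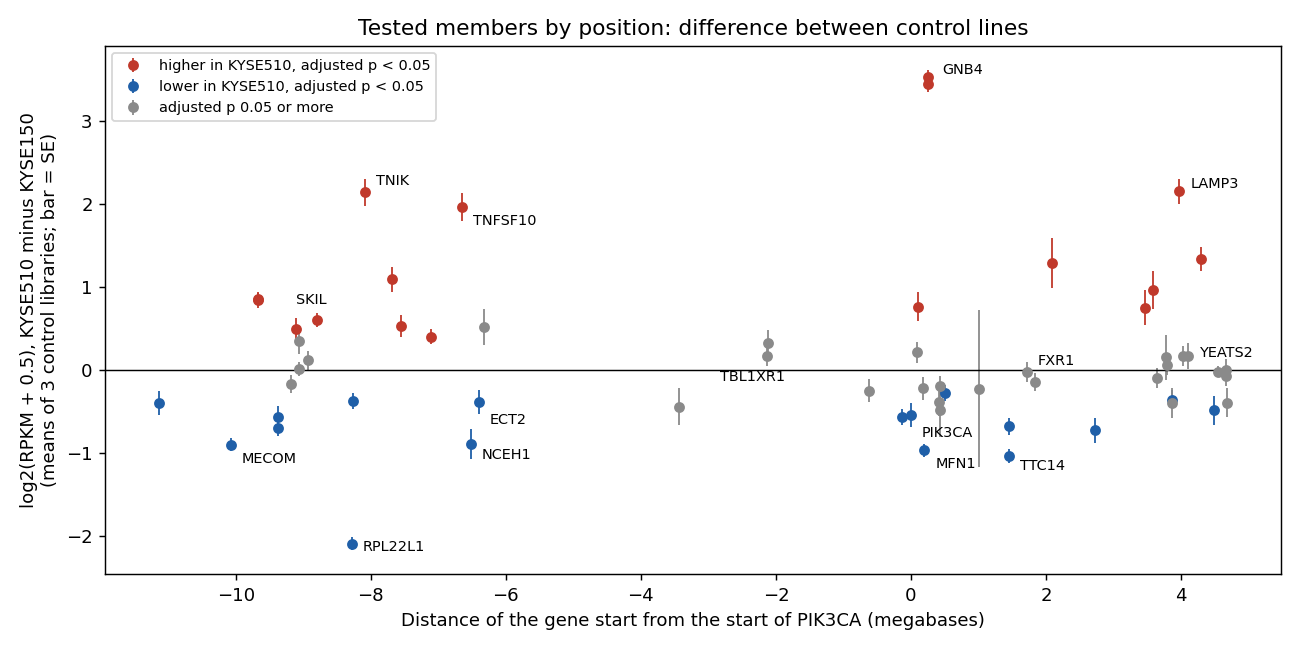
Difference between control lines for each of the 61 tested members (vertical axis, log2(RPKM + 0.5), KYSE510 minus KYSE150, means of 3 libraries, bar = SE) against the distance of the gene start from the start of PIK3CA in megabases. Red and blue points passed the limma threshold. Both directions occur in every 4-megabase block of the window, from -2.09 for RPL22L1 to 3.52 for GNB4. Of the 17 higher members, 10 passed the filter on low values through KYSE510 alone.

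Calls in both directions were found in every 4-megabase block of the window. However, 10 of the 17 higher members passed the filter through KYSE510 alone and so could pass only where they were higher. Over all genes tested, 28.3% were higher and 33.7% lower. In the first 4 megabases of the window, 7 of 17 tested members were higher in KYSE510 and 6 lower. The 7 include an antisense entry whose exon bases all lie inside a pseudogene also among the 7. The same reads may count for both. The 6 lower include MYNN and an antisense entry that shares part of its exon bases. In the next 4 megabases the counts were 2 and 2 of 6. The block that holds PIK3CA, from 176 to 180 megabases, had 3 higher and 4 lower of 15, and the last had 5 and 5 of 23. The 3 higher in the block of PIK3CA were GNB4, AC007620.3, whose exons lie wholly inside GNB4, and a pseudogene. Both GNB4 and AC007620.3 passed the filter through KYSE510 alone, and the same reads may count for both. Among coding genes alone, the blocks in order along the chromosome had 4 higher and 5 lower of 12, 2 and 2 of 4, 1 and 4 of 9, and 1 and 4 of 14. The blocks were not tested against each other. Direct neighbours could differ widely: in KYSE510, MFN1 was below its KYSE150 level, and GNB4, which follows it along the chromosome, was far above.

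The segments of chromosome 3 differed in their medians, while the members themselves spread widely, with quartiles at -0.40 and 0.51. On the short arm the median difference between lines was -0.28 over 447 tested genes, with 15.7% higher in KYSE510 and 46.3% lower. On the long arm between the centromere and the window, the median was 0.12 over 309 genes, with 37.2% higher and 21.0% lower. Beyond the window toward the telomere it was 0.20 over 122 genes, with 45.9% higher and 27.05% lower. The members' median of -0.03 lies between the short arm and the flanking long arm. These are medians over genes of the same 6 libraries and were not tested against each other.

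**Figure D2:**
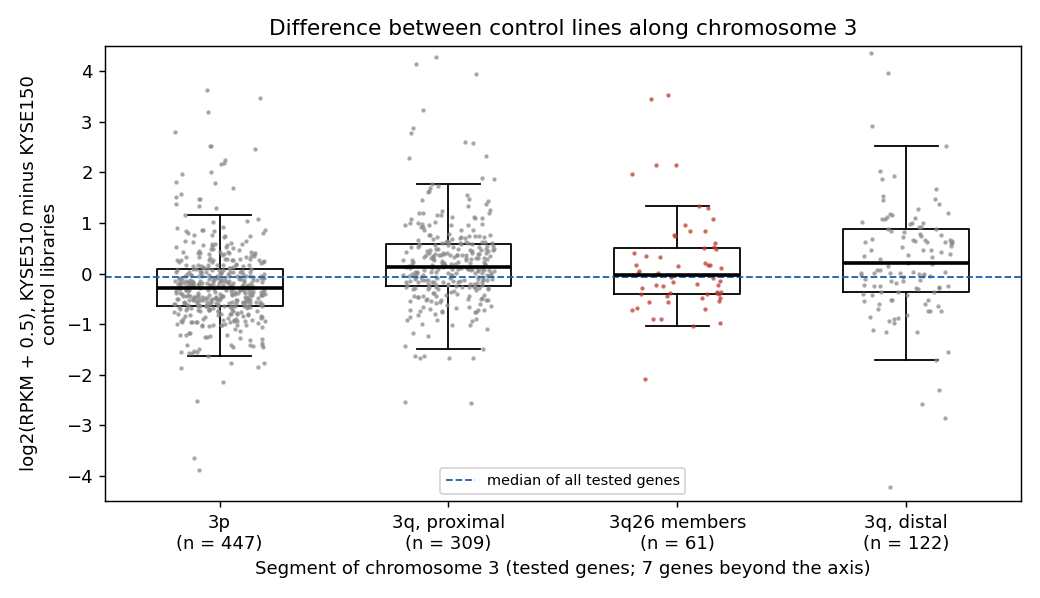
Difference between control lines (log2(RPKM + 0.5), KYSE510 minus KYSE150) for tested genes in 4 segments of chromosome 3; each point is a gene, boxes span the quartiles with the median as a thick line, whiskers reach the furthest gene within 1.5 times the box height, and 7 genes lie beyond the axis. The members (red) centre on -0.03, the short arm on -0.28 and the distal long arm on 0.20, and the dashed line is the median of all genes tested, -0.07.

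The 6 members listed under signalling encode kinases, lipid enzymes or G protein signalling parts, and 4 of them were higher in KYSE510 while PIK3CA was lower. All 4 (GNB4, TNIK, PLD1 and GPR160) passed the filter through KYSE510 alone and so had to be higher there, and 28.3% of all genes tested were higher. PIK3CA (chr3:179148114-179240093, plus strand) had 2.24, 2.12 and 2.33 RPKM in KYSE150 controls and 1.05, 1.68 and 1.43 in KYSE510 controls. The lines did not overlap, and the KYSE510 libraries were the more scattered. The mean was 2.23 ± 0.11 against 1.39 ± 0.32 (SD, n = 3 each), a difference of -0.55 (SE 0.15, limma adjusted p = 0.00728). It recurred in the silenced libraries, at 2.42 ± 0.43 against 1.38 ± 0.24 RPKM (-0.63, SE 0.15, adjusted p = 0.00298). Of the exon bases of PIK3CA, 36.2% are shared with KCNMB3, a potassium channel subunit gene on the opposite strand, and the use of strand in counting is not given in the sources used here, so some reads could belong to either gene. KCNMB3 was far lower, at 0.359 and 0.491 RPKM, and its difference of 0.21 (adjusted p = 0.173) has the other sign.

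GNB4 (chr3:179396089-179451590, minus strand), a beta subunit of heterotrimeric G proteins, showed the largest difference of any member on the log2(RPKM + 0.5) scale. KYSE150 controls had 0.0639, 0.0415 and 0.0376 RPKM, from 21 reads in all, and KYSE510 controls 5.27, 6.01 and 6.13 RPKM, from 3146 reads. All KYSE510 libraries lay far above all KYSE150 libraries. Scaled to library depth, the reads were 123 times as many in KYSE510 (exact 95% interval 80.5 to 200, counting error only), and on the log2 scale the difference was 3.52 (SE 0.09, limma adjusted p = 5.53e-11). The antisense gene AC007620.3 lies wholly inside GNB4 exons on the other strand and had nearly the same difference, 3.45 (SE 0.10, adjusted p = 1.29e-10). Reads of the pair cannot be told apart without strand.

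TNIK (chr3:171061339-171460408, minus strand), a serine/threonine kinase of the germinal centre family that acts in Wnt signalling, had 0, 0.0114 and 0.0155 RPKM in KYSE150 controls. The KYSE510 controls had 2.005, 1.34 and 1.95 RPKM, with no overlap. That is 5 reads against 1156, a ratio of 190 (exact 95% interval 81.3 to 587), and a difference of 2.14 (SE 0.16, limma adjusted p = 5.99e-07). Phospholipase D1 gene PLD1 was also higher, at 0.297 ± 0.022 and 0.656 ± 0.158 RPKM (0.53, adjusted p = 0.00469). The orphan receptor gene GPR160 had 0.318 ± 0.104 and 0.647 ± 0.161 RPKM (0.49, adjusted p = 0.00996), and in the silenced libraries its difference was 0.25 and missed the threshold (adjusted p = 0.137). PRKCI, by contrast, was level with 7.03 ± 0.55 and 7.68 ± 0.96 RPKM. Its difference of 0.11 (SE 0.11) was within the spread (adjusted p = 0.389).

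**Figure D3:**
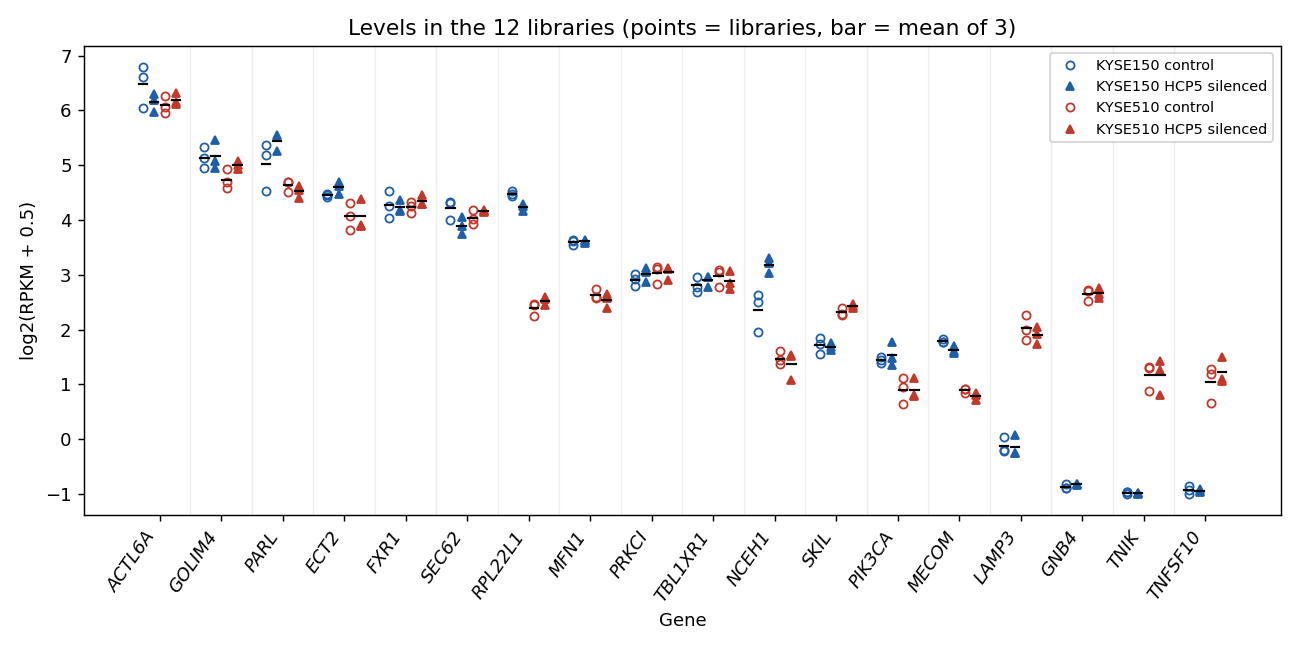
Level of 18 members in each of the 12 libraries (log2(RPKM + 0.5); open circles are controls, triangles HCP5-silenced libraries, bars the mean of 3). GNB4, TNIK, TNFSF10 and LAMP3 stand apart between lines whatever the treatment, ACTL6A and FXR1 overlap, and silenced and control libraries of a line lie close together for most genes.

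Of 10 members listed as regulators of transcription and chromatin, 9 were tested. Of these, 1 was higher in KYSE510 and 3 lower, beside 28.3% and 33.7% of all genes tested. MECOM (chr3:169083499-169663618, minus strand), a zinc finger transcription factor gene known from myeloid leukemia, had 2.92, 2.94 and 3.04 RPKM in KYSE150 controls and 1.29, 1.39 and 1.39 in KYSE510 controls. The lines were cleanly apart, with a difference of -0.90 (SE 0.08, limma adjusted p = 1.73e-06). SKIL, whose product SnoN represses SMAD signalling, went the other way, from 2.79 ± 0.33 to 4.48 ± 0.24 RPKM (0.60, adjusted p = 9.84e-05). The zinc finger gene MYNN stood at 3.21 and 1.79 RPKM (-0.70, adjusted p = 7.24e-05), and ZMAT3, a gene for a zinc finger RNA-binding protein, at 0.998 and 0.509 (-0.57, adjusted p = 0.00051). The polycomb gene PHC3, the histone reader gene YEATS2, the corepressor gene TBL1XR1 and the zinc finger gene ZNF639 had differences of 0.01, -0.02, 0.17 and -0.22, none past the threshold.

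ACTL6A (chr3:179562880-179588408, plus strand), an actin-related subunit of SWI/SNF chromatin remodelling complexes, had the highest level per length of any coding member. KYSE150 controls had 97.1, 110 and 65.8 RPKM and KYSE510 controls 76.0, 66.4 and 61.4. The groups overlapped, and the third KYSE150 control lay well under the other 2. The difference of -0.39 (SE 0.17) missed the threshold (limma adjusted p = 0.0622). In the silenced libraries it was 0.04 (adjusted p = 0.837), at 70.9 ± 8.3 and 72.9 ± 5.5 RPKM.

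Of 4 RNA-binding and translation genes, 3 were lower in KYSE510, beside 33.7% of all genes tested. RPL22L1 (chr3:170864875-170870483, minus strand), a paralog of ribosomal protein L22, had 21.7, 21.3 and 22.5 RPKM in KYSE150 controls and 4.25, 5.002 and 4.97 in KYSE510 controls. Each KYSE150 library was above every KYSE510 library, by 4.602 times in the means (-2.09, SE 0.08, limma adjusted p = 1.72e-09). TTC14 (chr3:180602130-180617828, plus strand), which encodes a protein with tetratricopeptide repeats, had 5.105, 5.11 and 4.94 RPKM against 2.07, 2.14 and 2.43. Its difference was -1.04 (SE 0.08, adjusted p = 8.01e-07), again with no overlap. EIF5A2, the second gene for translation factor eIF5A, was low in both lines, at 0.583 and 0.335 RPKM (-0.37, adjusted p = 0.00509). Its mean in KYSE510 controls lay under the filter of 0.5 RPKM, so the filter may have fixed its direction. FXR1, a relative of the fragile X protein gene FMR1, did not part the lines, at 19.0 ± 3.3 and 18.42 ± 1.32 RPKM (-0.03, SE 0.12, adjusted p = 0.848).

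Mitochondrial members were below 0 in 4 of 4 cases, beside a median of -0.07 over all genes tested. Of the 4, 2 were called lower, beside 33.7% of all genes tested. MFN1 (chr3:179347692-179394931, plus strand), a GTPase that fuses outer mitochondrial membranes, had 11.9, 11.2 and 11.8 RPKM in KYSE150 controls and 5.51, 6.16 and 5.48 in KYSE510 controls, a difference of -0.97 (SE 0.08, limma adjusted p = 1.13e-06) with no overlap. MCCC1, a carboxylase subunit of leucine breakdown, stood at 11.2 ± 0.1 and 8.65 ± 0.89 RPKM (-0.36, adjusted p = 0.0170). The rhomboid protease gene PARL had 35.8, 22.7 and 41.0 RPKM against 22.4, 25.4 and 25.4, and its overlapping groups gave -0.39 (adjusted p = 0.0738). The protein import gene DNAJC19 gave -0.15 (adjusted p = 0.249). Per library, the reads on the mitochondrial genome took 7.86% to 8.91% in KYSE150 controls and 10.2% to 10.99% in KYSE510 controls, and rescaling the libraries without these reads left MFN1 at -0.94 (adjusted p = 1.45e-06) and MCCC1 at -0.33 (adjusted p = 0.0268).

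Among the 7 members of the secretory pathway and membranes, 2 were higher in KYSE510 and 2 lower. The shares over all genes tested were 28.3% and 33.7%. LAMP3 (chr3:183122213-183163839, minus strand), a lysosomal membrane protein known from mature dendritic cells, had 0.366, 0.370 and 0.531 RPKM in KYSE150 controls and 3.03, 3.47 and 4.33 in KYSE510 controls. The lines did not overlap, and the difference was 2.15 (SE 0.15, limma adjusted p = 2.32e-07), from 103 and 1068 reads. LAMP3 lay near or under the filter of 0.5 RPKM in KYSE150 controls, so KYSE510 largely carried it past the filter. FNDC3B, a fibronectin repeat protein of the endoplasmic reticulum, was higher by 0.40 (3.15 ± 0.11 and 4.33 ± 0.41 RPKM, adjusted p = 0.00203). NCEH1 (chr3:172630249-172711218, minus strand), a hydrolase of cholesterol esters, was lower, with 5.18, 3.38 and 5.71 RPKM against 2.10, 2.21 and 2.53 (-0.89, SE 0.18, adjusted p = 0.00103). The Golgi gene GOLIM4 had 34.8 ± 4.6 and 26.3 ± 3.3 RPKM (-0.40, adjusted p = 0.0286), and this call was lost in 9 of 23 alternatives. The translocation gene SEC62, the flippase gene ATP11B and the glycosyltransferase gene B3GNT5 did not pass, at -0.17, -0.09 and 0.17.

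TNFSF10 (chr3:172505508-172523507, minus strand) encodes TRAIL, a ligand that triggers apoptosis through death receptors, and was the 1 called gene among 7 surface and secreted members, of which 2 were tested. KYSE150 controls had 0.0287, 0.0561 and 0 RPKM and KYSE510 controls 1.08, 1.78 and 1.92, that is 6 and 429 reads. The ratio was 58.9 (exact 95% interval 26.8 to 161) and the difference 1.96 (SE 0.17, limma adjusted p = 1.43e-06). TNFSF10 passed the filter through KYSE510 alone and so had to be higher there, and 28.3% of all genes tested were higher. CLDN11, NAALADL2, KCNMB2, SLC7A14 and GHSR were not tested, with means of 0.000290 to 0.0269 RPKM over the 12 libraries. Such levels are at or near the limit of detection at this depth.

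The exchange factor gene ECT2, needed for cytokinesis, had 21.0, 21.8 and 21.5 RPKM in KYSE150 controls and 13.6, 19.4 and 16.3 in KYSE510 controls. The groups did not overlap, with a difference of -0.39 (SE 0.14, limma adjusted p = 0.0355), but the call was lost in 7 of 23 alternatives. The telomerase RNA gene TERC was not tested. Its 35 reads over 12 libraries equal those of the entry Telomerase-vert in every library, so the table counted the same reads for both. ACTRT3, its neighbour, missed the filter as well, with 1 read in KYSE150 controls and 60 in KYSE510 controls, a ratio of 49.4 with an exact 95% interval of 8.53 to 1983. In the ubiquitin and neddylation group, the deubiquitinase gene USP13 (4.09 and 3.29 RPKM, -0.28, adjusted p = 0.0265) and the cullin adaptor gene KLHL24 (0.397 and 0.142 RPKM, -0.49, adjusted p = 0.0273) were lower. Their calls were lost in 5 of 23 and 2 of 22 alternatives. That is 2 lower of 3 tested, beside 33.7% of all genes tested. The mean of KLHL24 in KYSE510 controls lay under the filter of 0.5 RPKM, so the filter may have fixed its direction. The neddylation ligase gene DCUN1D1 was not called (0.06), and KLHL6 was at most 1 read in any library.

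The member with the highest RPKM was not a coding gene. AC074033.1, an antisense entry with only 45 exon bases, had 162, 159 and 145 RPKM in KYSE150 controls and 314, 283 and 245 in KYSE510 controls (0.85, SE 0.10, limma adjusted p = 1.45e-05). All its bases lie in the processed pseudogene RP11-641D5.1, which had 18.8 ± 0.7 and 34.4 ± 3.1 RPKM and the same difference (0.85, SE 0.08, adjusted p = 2.60e-06). Reads of a processed pseudogene can come from its parent gene, so both values are uncertain. GENCODE names RP11-641D5.1 as RPL22P1, a pseudogene of RPL22 by its name, and RPL22 itself differed by 0.93 between the lines. In all, 51 of the 150 members share exon bases with another gene, and 7 share all of them.

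The same contrast was also taken in the 6 HCP5-silenced libraries. They come from the same lines and were taken as paired with the controls by number, so they are not an independent set. There, 15 of the 61 members were higher in KYSE510 (24.6%) and 22 lower (36.1%), beside 24.2% and 39.8% of all genes tested. All 34 members called in the controls kept their sign and 30 passed in both. For GNB4 the silenced libraries gave 3.49 (SE 0.09, limma adjusted p = 6.26e-11), and for RPL22L1 -1.70 (SE 0.08, adjusted p = 9.19e-09). ATP11B and PHC3, uncalled in controls, were lower there by -0.44 (adjusted p = 0.00757) and -0.24 (adjusted p = 0.0292), and PARL by -0.92 (adjusted p = 0.000835).

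Several members have paralogs elsewhere in the genome, and 22 were listed to see whether a low member stood beside a higher relative. Of these 20 were tested, and 4 were higher in KYSE510 and 6 lower, beside 28.3% and 33.7% of all genes tested. RPL22, the relative of RPL22L1, had 109 ± 23.5 RPKM in KYSE150 controls and 206 ± 25 in KYSE510 controls (0.93, SE 0.17, limma adjusted p = 0.000523), the opposite direction to RPL22L1. MFN2 likewise was higher in KYSE510, at 37.5 and 55.6 RPKM (0.56, adjusted p = 2.10e-05) where MFN1 was lower. GNB1 was higher in the same line as GNB4 (42.2 and 70.3 RPKM, 0.72, adjusted p = 0.000321) and was the far more abundant of the pair in both. Of the kinases related to TNIK, MAP4K4 was lower in KYSE510 (24.9 and 9.65 RPKM, -1.33, adjusted p = 1.45e-05) and MINK1 was near level at 25.8 and 27.4 (0.09). PIK3CB, the beta catalytic subunit, was near PIK3CA in KYSE150, at 2.33 RPKM, and had 2.26 in KYSE510 (-0.04, SE 0.12). ATP11A and PHC1 were lower (-1.20 and -1.03), both past the threshold, where ATP11B and PHC3 were not called.

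**Figure D4:**
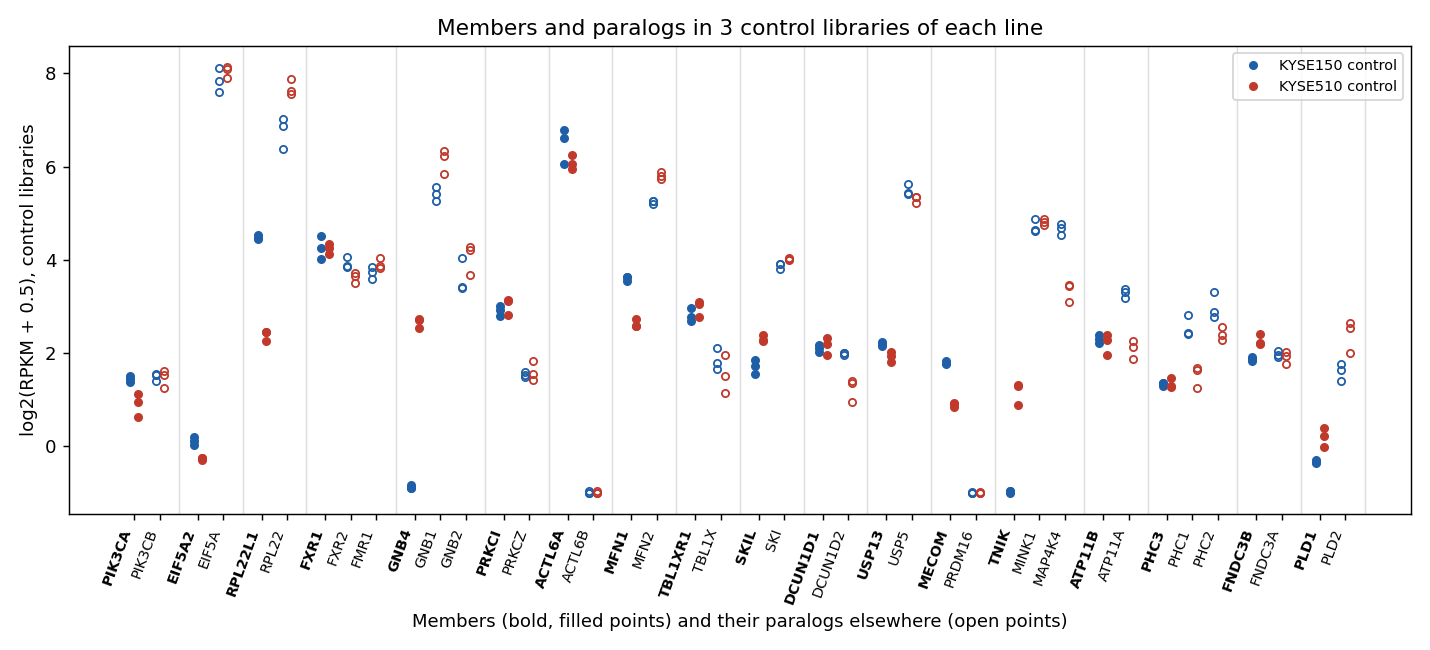
Members (bold names, filled points) and their paralogs outside the window (open points) in the 3 control libraries of each line (log2(RPKM + 0.5)). RPL22L1 is lower in KYSE510 and RPL22 higher, MFN1 lower and MFN2 higher, while GNB4 and GNB1 are both higher in KYSE510.

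Outside the window, 27 genes of the PI3K pathway were listed and 26 tested, PIK3CG being too low. Between control lines 8 were higher in KYSE510 and 10 lower, beside 28.3% and 33.7% of all genes tested. The median was -0.04, beside -0.07 over all genes tested. Higher were the regulatory subunit gene PIK3R3 (0.577 and 3.29 RPKM, 1.81, limma adjusted p = 4.13e-07), the delta catalytic subunit gene PIK3CD (0.313 and 0.908, 0.80), the kinase gene GSK3B (4.40 and 7.34, 0.68) and MTOR (6.79 and 10.7, 0.61). Lower were the class III kinase gene PIK3C3 (2.04 and 0.964, -0.80), the insulin receptor substrates IRS1 (-0.63) and IRS2 (-0.50) and the phosphatase gene INPP4B (-0.60).

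The comparison the study was built for is HCP5 silencing within each line. No member passed the threshold in KYSE150, where limma called 0.499% of all genes tested, and none in KYSE510, where it called 0.0393%. None passed in the mean over lines (0.539% of all genes) or in the difference between lines (0%). At an unadjusted p under 0.05 there were 11 members in KYSE150 (18.0%, beside 18.1% of all genes) and 1 in KYSE510 (1.64%, beside 6.35%). In the mean there were 6 (9.84%, beside 11.5%) and in the difference 4 (6.56%, beside 12.2%). With voom on the recovered reads, 1 member passed in KYSE150 (NCEH1, adjusted p = 0.0397) and 0 in KYSE510. The median change was 0.03 in KYSE150 and -0.02 in KYSE510, beside 0.08 and -0.02 over all genes, and 33 and 24 of the 61 members were above 0. The largest changes were between -0.62 and 0.82 in KYSE150 and between -0.51 and 0.26 in KYSE510. These are small beside the gaps between lines.

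Replicate numbers were taken to pair control and silenced libraries from correlations in these same data, and the titles state no pairing. The p-values with the block depend on that choice. With the number as a block, 2 members passed in KYSE150, beside 6.7% of all genes tested, and 0 in KYSE510, beside 0.112%. In the mean over lines none passed with the block, beside 2.74% of all genes. The 2 were NCEH1 and ATP11B, both higher on silencing. NCEH1 had 5.18, 3.38 and 5.71 RPKM in KYSE150 controls and 8.77, 7.65 and 9.39 in silenced libraries, higher in 3 of 3 pairs and without overlap. It was higher by 0.82 on the log2 scale (SE 0.18). By limma this gave an adjusted p of 0.0729 without the block and 0.0229 with it. Over its alternatives the adjusted p ran from 0.0229 to 0.261. In KYSE510 it had 2.10, 2.21 and 2.53 RPKM in controls and 2.38, 1.62 and 2.40 in silenced libraries, and the groups overlapped (-0.09, adjusted p = 0.976). The difference between lines, -0.91 (SE 0.25), missed the threshold without and with the block (adjusted p = 0.394 and 0.109).

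ATP11B had 4.17, 4.42 and 4.71 RPKM in KYSE150 controls and 4.99, 5.76 and 6.05 in silenced libraries, higher in 3 of 3 pairs (0.30, SE 0.12). Its limma adjusted p was 0.231, and 0.0482 with the block. In KYSE510 its value was -0.04 (adjusted p = 0.990). The pseudogene RP11-252O18.3 was lower in silenced KYSE150 libraries, at 0.814 ± 0.160 and 0.353 ± 0.098 RPKM (-0.62, adjusted p = 0.0958), and RPL22L1 stood at 21.8 ± 0.6 and 18.31 ± 0.79 (-0.25, adjusted p = 0.161). Neither passed with the block (adjusted p = 0.0562 and 0.0546). In KYSE510 the smallest p-values belonged to RP11-641D5.1 (-0.17, adjusted p = 0.784), GOLIM4 (0.26, adjusted p = 0.858) and AC074033.1 (-0.17, adjusted p = 0.862).

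**Figure D5:**
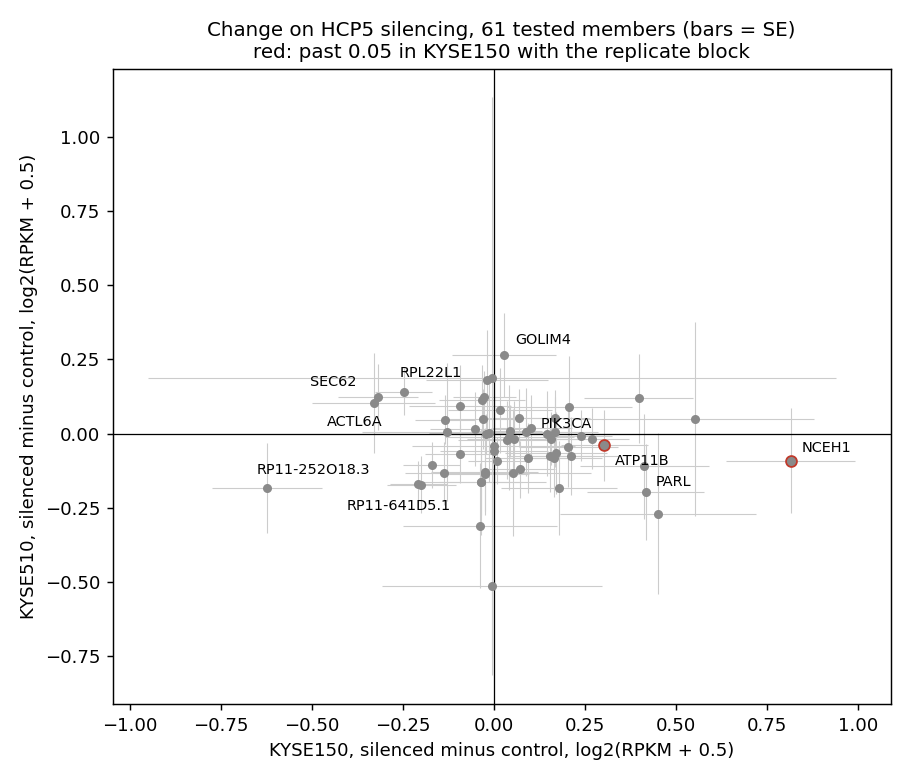
Change on HCP5 silencing (silenced minus control, log2(RPKM + 0.5)) in KYSE150 (horizontal) and KYSE510 (vertical) for the 61 tested members, with SE bars. Red rings mark NCEH1 and ATP11B, which passed the threshold in KYSE150 with the replicate block; NCEH1 lies at 0.82 and -0.09, and most members lie near 0 on both axes.

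PIK3CA showed no change past the threshold on silencing in either line. Silenced KYSE150 libraries had 2.30, 2.06 and 2.90 RPKM and silenced KYSE510 libraries 1.26, 1.67 and 1.23, both overlapping their controls. Silenced minus control was 0.09 in KYSE150 (SE 0.15, limma adjusted p = 0.789) and 0.01 in KYSE510 (SE 0.15, adjusted p = 1). Of the 26 tested pathway genes outside the window, none passed in either line. In KYSE150, 25 of the 26 were above 0, with a median of 0.16 beside 0.08 over all genes. With the block 3 passed, beside 6.7% of all genes tested: RICTOR (0.36), IRS1 (0.34) and RPTOR (0.31). Of the paralogs, FNDC3A rose in KYSE150 from 3.37, 3.29 and 3.64 RPKM to 5.78, 5.89 and 6.47 (0.74, SE 0.09, adjusted p = 0.00919). It was the 1 paralog of the 20 tested that passed in KYSE150, beside 0.499% of all genes tested. With the block 4 passed, beside 6.7%. FNDC3B, its relative in the window, was at 0.16 there (adjusted p = 0.362).

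By group means on the log2 scale, all 8 squamous markers were higher in silenced than in control libraries of both lines. The median change was 0.52 in KYSE150 and 0.26 in KYSE510. Not every pair moved this way: SFN was lower in the second KYSE150 pair (-0.14) and the first KYSE510 pair (-0.04). For some markers, such as KRT6A and SFN, silenced and control libraries overlapped in both lines. PKP1 was very low in KYSE510, at 0.075 RPKM in controls. With the block 7 of the 8 passed in KYSE150 and 1 in KYSE510, beside 6.7% and 0.112% of all genes tested. Without the block none passed in either line. In the mean over lines, 1 passed without the block (TP63, 0.32, limma adjusted p = 0.0483), beside 0.539% of all genes. With the block 6 passed, beside 2.74%. The depth of the KYSE150 libraries differed between the groups as given above. The part of either in the changes of NCEH1 and ATP11B was not tested.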

How the data were processed

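RNA-seq libraries of 4 groups, 3 each, were compared. The deposited table gives RPKM per gene, which the authors scaled by exon length and by the assigned reads of each library, with positions in the layout of featureCounts per the file headers. The submitters' processing notes name HISAT2, DESeq and GRCh38 without a role. Annotation release, filters and strand are not given in the sources used here. RPKM gave whole reads in 100% of values (tolerance 0.05 reads), which recovered the depth of 20035025 to 28202422 reads per library. Depth limits low genes: 3 reads on a gene of 1 kb are 0.106 to 0.150 RPKM.

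The authors' RPKM were taken as log2(RPKM + 0.5), and 17823 genes with at least 0.5 RPKM in at least 3 libraries were fitted as 4 group means with limma 3.58.1 in R 4.3.3 (eBayes with trend, 8 residual degrees of freedom). P-values were two-sided and adjusted by Benjamini-Hochberg over all 17823 genes, with a threshold of 0.05. The fit was also run on simulated counts drawn without pairing of libraries. That run does not measure the spread of these libraries. Ratios of reads carry exact 95% binomial intervals, which cover counting error only. Promoters came from RefSeq (GRCh38.p14) and gene types from GENCODE 29. Protein sequences were not used here.

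Replicate numbers come from the titles, which state no pairing. KYSE150 control 2 correlated at 0.184 with silenced library 1 and at 0.147 with the silenced library of its own number. Deviations from group means correlated at 0.147 to 0.415 in all 6 same-numbered pairs and at -0.385 to 0.184 otherwise, so the numbers were taken to pair libraries, and a fit that holds the number as a replicate block, leaving 4 residual degrees of freedom, stands beside results it changes. Alternatives were other pseudocounts, filters, scalings, voom on the recovered reads, the 6 libraries compared alone, and each library left out. The silenced libraries in place of controls were added after seeing the data.

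Members and gene lists were chosen with earlier results of these data known. Named genes are the listed members, the 5 largest called differences between lines in each direction without overlap of libraries, members past the threshold on silencing, the 3 smallest p-values in each line, and up to 4 genes for each outside list and contrast, with the paralogs of named members. Another paralog is not reported here and was taken out of the counts. Promoters to print, ATP11B, RICTOR and RPTOR with the block, and markers named by level were chosen after their values were seen.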

Additional observations from a re-analysis of the deposited data

Results flagged for a closer look

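For 4 members, every same-numbered pair of libraries moved one way on HCP5 silencing in KYSE150 and the opposite way in KYSE510. The difference between lines itself (KYSE510 change minus KYSE150 change, log2 scale) did not pass the limma threshold for any of the 4, without or with the replicate block. It was -0.19 for MYNN (adjusted p = 0.522), 0.39 for RPL22L1 (adjusted p = 0.394), -0.36 for B3GNT5 (adjusted p = 0.468) and -0.53 for PARL (adjusted p = 0.413). RPL22L1 fell by 0.16 to 0.36 in the KYSE150 pairs and was higher by 0.10 to 0.19 in the KYSE510 pairs. PARL rests on the second KYSE150 pair, at 0.98, beside 0.08 and 0.18 in the other KYSE150 pairs.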

How the results depend on the processing

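Between control lines, the members called higher in KYSE510 numbered 12 to 22 and those called lower 13 to 22 over all alternatives. Over the whole table, voom on recovered reads called 84 genes higher and 77 lower on silencing in KYSE150, and 18 and 6 in KYSE510. The members' median difference between lines was 0.062 with voom on recovered reads, beside -0.03 as reported. On silencing in KYSE150 the count of 0 members became 1 with quantile normalization (RPL22L1), 1 with voom (NCEH1) and 2 with the replicate block, and ran from 0 to 4 with each library left out. The 4 appeared without KYSE150 control replicate 3 (NCEH1, SEC62, ACTL6A and RP11-252O18.3), where limma called 974 genes higher and 313 lower over the whole table. The median in KYSE150 was -0.10 with each library centred on its median, which moved the median of all genes from 0.08 to -0.05. In KYSE510 it ran from -0.115 to 0.016 with each library left out, the lowest without KYSE510 control replicate 1. The replicate block changed no other call among members on silencing. The cause of these changes was not tested.

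Small differences between lines changed sign. YEATS2 was at 0.0048 centred, 0.028 quantile-normalized, 0.0046 rescaled without mitochondrial reads and 0.066 with voom, and ran from -0.058 to 0.013 with each library left out. FXR1 was at 0.0010, 0.017, 0.0023 and 0.062 under the same scalings and ran from -0.149 to 0.098 with each library left out. With each library left out, PHC3 ran from -0.058 to 0.045, ATP11B from -0.183 to 0.036 and DCUN1D1 from -0.027 to 0.154. In the silenced libraries TBL1XR1 was at -0.0087, PHC3 -0.24, ACTL6A 0.042, FXR1 0.114, DCUN1D1 -0.11, SEC62 0.27 and B3GNT5 -0.20. ACTL6A was called without KYSE150 control replicate 3. Calls between lines were lost for ECT2 in 7 alternatives, GOLIM4 in 9, USP13 in 5, MCCC1 and KLHL24 in 2 each, and GPR160 and RP11-252O18.3 in 1.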
